A study of Mus musculus with 15 samples.

Results

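Lungs taken from mouse embryos at embryonic day E12.5 and held for 48 h under low pressure were compared with lungs of the starting stage that went straight to RNA extraction. The comparison rests on 6 of the 15 libraries of the series: 3 of the low pressure culture and 3 of fresh E12.5 lung, chosen by their labels alone. Every library of both groups was made from a pool of 6 lungs, all of strain CD1 and wildtype, so each replicate is a pool and p-values measure the spread between pools. The other 9 libraries are the fresh E13.5 and E14.5 stages and E12.5 lungs cultured for 48 h under high pressure, each in pools of 3 lungs. RNA was sequenced in bulk and reads were counted per gene, and levels are given below as library-size scaled counts (CPM) on 1 scale for all 15 libraries. The cultured and the fresh libraries were deposited in separate tables, so the culture, the 48 h that passed and the library set cannot be told apart. In bulk tissue, fewer cells of a type and less RNA per cell cannot be told apart either.

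At E12.5 the mouse lung is a branching epithelial tree inside a mesenchyme that supplies growth signals, airway smooth muscle, vessels and the cartilage of the large airways. Blood flow carries nucleated red cells into the organ until it is explanted. An explant loses its circulation and takes its oxygen and nutrients by diffusion from the medium. Cells short of oxygen are known to stabilise the hypoxia-inducible factors (HIF), which switch on glucose uptake, glycolysis and vessel growth factors.

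Total counts per library were 20237413 to 21955244 at E12.5 and 31843739 to 38288861 in the culture. Lung markers were present in all 6 libraries, with Nkx2-1, the lung epithelial lineage factor, at 70.8 to 88.7 CPM and Tbx4, a lung mesenchyme factor, at 44.4 to 167 CPM. Of markers of heart, thymus and liver, Nppa, Foxn1 and Alb stayed at or below 0.281 CPM in all 6 libraries. Myh6, cardiac myosin, was at 16.5, 5.71 and 0.0511 CPM at E12.5 and at 0.341, 3.09 and 1.90 CPM in culture, with a log2 fold change of -2.05 ± 1.24 (SE) that did not pass and that passed without E12.5 replicate 3 at -2.63. Afp, which fetal liver makes, was at 2.53, 2.85 and 1.53 CPM and at 0.279, 0.0260 and 0 CPM (log2 fold change -4.47 ± 1.01, SE; edgeR quasi-likelihood test, adjusted p = 0.0152), a call lost without E12.5 replicate 2 or low pressure replicate 2. The part of these tissues in the results was not tested. E12.5 replicate 1 stood apart: genes of 82 ribosomal proteins took 3.33% of counts, against 2.10% and 1.94% in the other two and 1.76% to 2.02% in the culture. Low pressure replicate 3 also stood apart: 1611 genes that had counts in both other cultured libraries were at 0, against 58 and 60 genes for the other two, and 416 of these genes were among those tested.

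Of 14461 genes tested with edgeR's quasi-likelihood test and Benjamini-Hochberg adjustment, 3885 (26.9%) passed an adjusted p of 0.05. Of all genes tested, 14.47% rose (2093 genes) and 12.4% fell (1792 genes) in culture, and these shares are the background for every gene list below. The groups did not overlap in the higher direction for 24.6% of genes and in the lower direction for 22.4%. Across all genes the log2 fold change had a median of -0.03. The count of genes past the threshold depends on single libraries: it was 6085 without E12.5 replicate 1, 1584 without E12.5 replicate 2, 2000 without low pressure replicate 1, and 1846 without low pressure replicate 2.

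**Figure D1:**
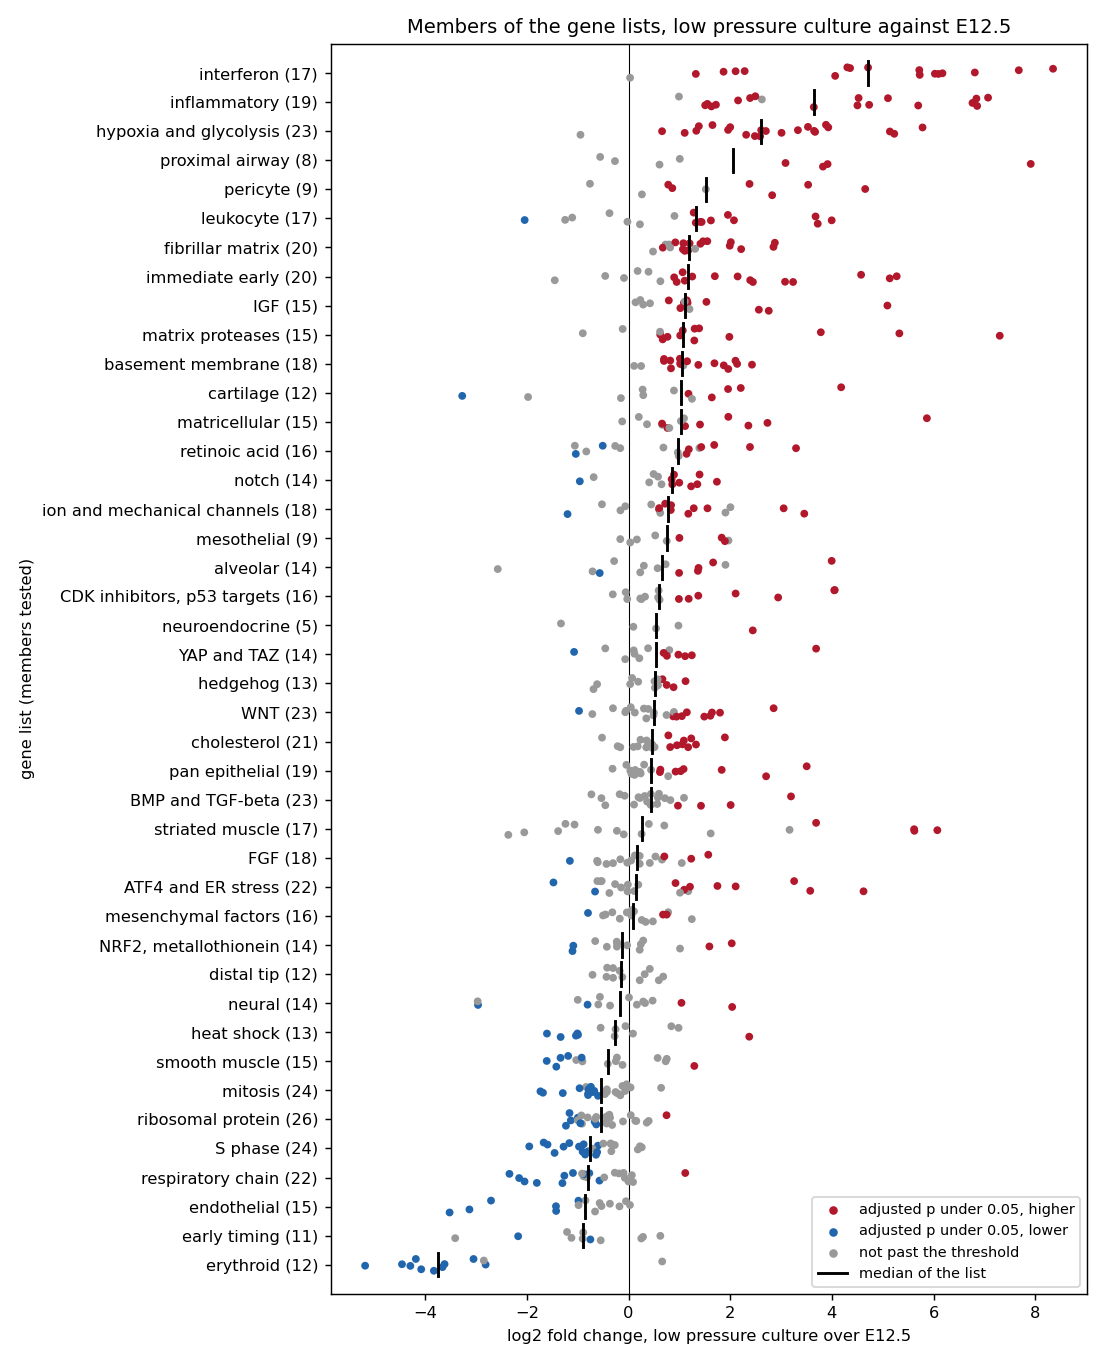
Each point is a gene of 1 of 42 gene lists, placed by its log2 fold change of the low pressure culture over fresh E12.5 lung on the horizontal axis, with the lists ordered by their median (black bar) and the number of members tested in brackets. Red points are higher and blue points lower at an adjusted p under 0.05. The interferon list has the highest median (4.71) and the erythroid list the lowest (-3.74).

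Genes of the hypoxia response and of glycolysis rose together: 22 of the 23 members tested passed the threshold upward, against 14.47% of all genes, and none fell. Their median log2 fold change was 2.61, and their summed level went from 3446 to 4505 CPM in the E12.5 libraries to 15931 to 17902 CPM in culture. Slc2a1, the main glucose transporter of embryonic tissue (chr4:119108711-119137983, plus strand), stood at 151, 125 and 125 CPM at E12.5 and at 1411, 1544 and 1684 CPM in culture. The difference was a log2 fold change of 3.53 ± 0.19 (SE; edgeR quasi-likelihood test, adjusted p = 9.83e-05), and the lowest cultured library lay far above the highest fresh one. Vegfa, the growth factor that draws in vessels (chr17:46016993-46032369, minus strand), went from 70.3, 148 and 139 CPM to 1680, 1711 and 1889 CPM. Its log2 fold change was 3.88 ± 0.31 (SE; edgeR quasi-likelihood test, adjusted p = 0.000286), with the lowest fresh value in the replicate that stood apart. Ndrg1, a stress-induced gene widely used as a hypoxia marker, was at 13.4, 11.7 and 8.33 CPM at E12.5 and at 594, 626 and 627 CPM in culture, a log2 fold change of 5.78 ± 0.24 (SE). For Car9, a carbonic anhydrase that exports acid from cells, the fresh libraries held 0.609, 0.736 and 1.38 CPM and the cultured ones 38.3, 32.3 and 31.2 CPM (log2 fold change 5.23 ± 0.33, SE). Groups were separate for all 4 of these genes. Pdk1, the kinase that holds pyruvate out of the mitochondria, rose by 2.59 on the log2 scale. Eno2, an enolase best known from neurons, was among the 15 genes with the largest gains, from 5.29, 3.18 and 2.40 CPM to 212, 250 and 219 CPM. The exception of the list was Eno1, at a mean of 1.66 CPM at E12.5 and 0.862 CPM in culture, whose reads may be split with a near-identical copy. Leaving out 1 library left 19 to 22 members past the threshold.

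**Figure D2:**
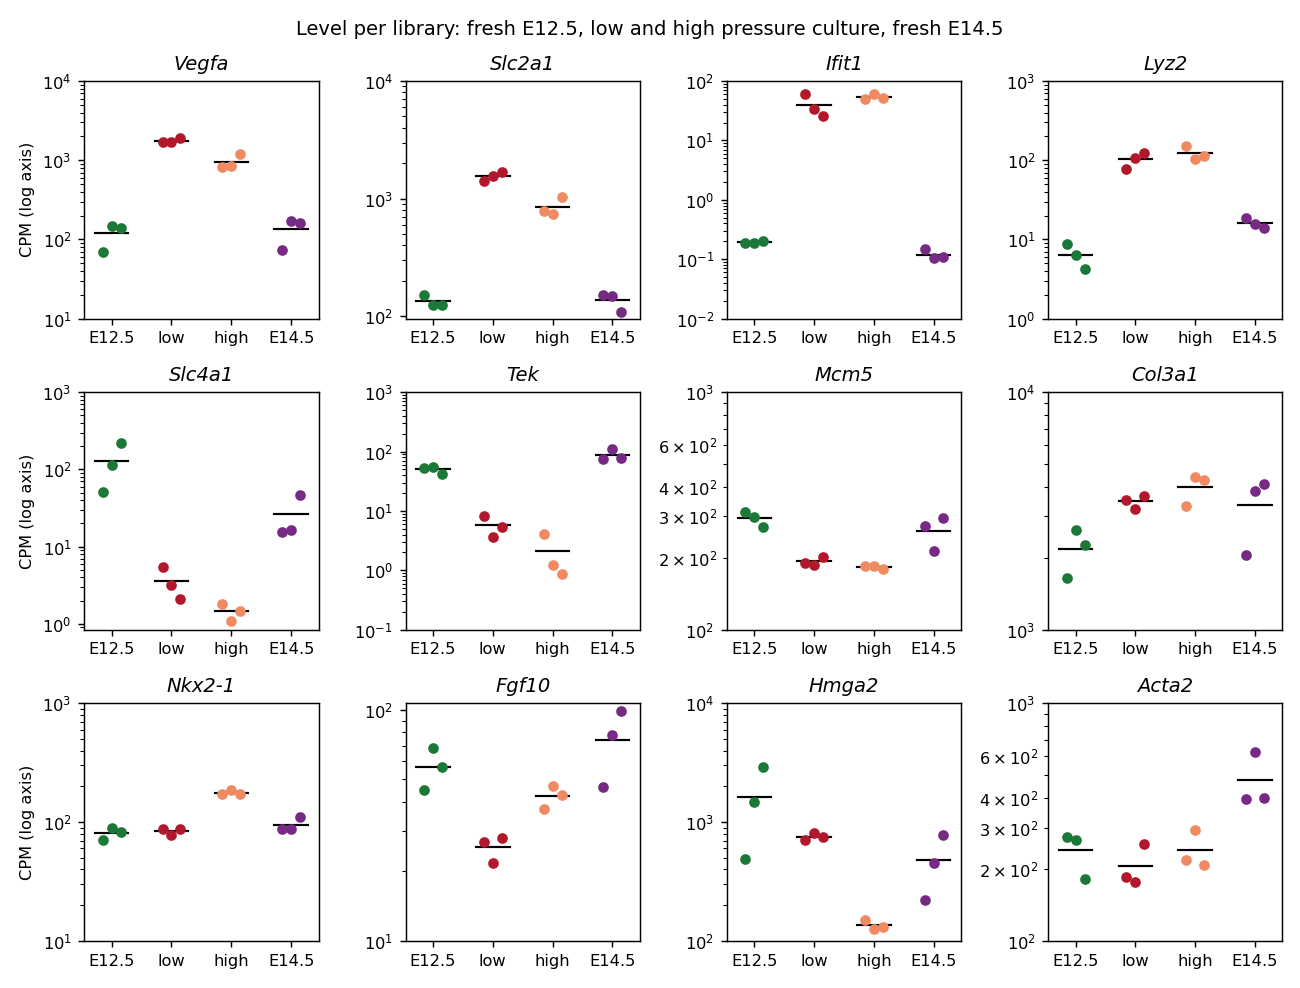
Each panel gives 1 gene, with its level in CPM on a log axis in the 3 libraries (points, replicates 1 to 3 from left to right) and the mean (bar) of fresh E12.5, low pressure culture, high pressure culture and fresh E14.5 lung. Vegfa, Slc2a1, Ifit1 and Lyz2 are higher in all cultured libraries than in all fresh ones, Slc4a1 and Tek are lower, and Nkx2-1 at low pressure (77.9 to 87.5 CPM) lies within the E12.5 range.

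The promoters of this list were read to see how often they hold ACGTG, the core letters that HIF binds. RefSeq (build GRCm38.p6) gave a promoter for 22 of the 23 members, and 13 of them (59.1%) held ACGTG on either strand between 250 bases before and 50 bases after the start, against 19.7% of 27025 promoters of the same length. A match of these letters is a description and not a bound site. The list was chosen as hypoxia and glycolysis genes, and the share counts all members, changed or not. It therefore cannot tie the letters to the change in culture. Among the 4 members with the smallest p, the promoters of Slc2a1 (chr4:119108495-119108794, plus strand) and Car9 (chr4:43506776-43507075, plus strand) held 1 match each, shown in capitals (CACGT is the same core read on the other strand), and that of Pdk1 held none.
Slc2a1: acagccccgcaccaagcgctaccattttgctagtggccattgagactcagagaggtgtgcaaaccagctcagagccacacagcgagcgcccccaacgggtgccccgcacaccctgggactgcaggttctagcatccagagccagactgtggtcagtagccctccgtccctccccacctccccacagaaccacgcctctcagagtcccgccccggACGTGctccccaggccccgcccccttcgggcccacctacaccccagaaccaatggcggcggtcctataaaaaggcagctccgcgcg
Car9: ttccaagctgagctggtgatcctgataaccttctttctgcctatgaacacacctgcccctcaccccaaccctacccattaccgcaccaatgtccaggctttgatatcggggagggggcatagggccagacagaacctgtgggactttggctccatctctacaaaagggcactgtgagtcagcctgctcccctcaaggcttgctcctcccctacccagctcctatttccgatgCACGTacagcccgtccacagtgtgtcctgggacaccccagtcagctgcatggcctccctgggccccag

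The summed level of the interferon-induced genes was 76.2 to 83.1 CPM in fresh lung and 440 to 640 CPM in culture. Of 17 members tested, 16 rose and none fell, with a median log2 fold change of 4.71. Ifit1, an antiviral protein that binds foreign RNA (chr19:34640871-34650009, plus strand), was at 0.187, 0.184 and 0.204 CPM at E12.5 and at 60.9, 33.8 and 25.7 CPM in culture. That is a log2 fold change of 7.68 ± 0.47 (SE; edgeR quasi-likelihood test, adjusted p = 0.000121), and no cultured library came near the fresh ones. Irf7, the transcription factor that amplifies interferon production, went from 0.234, 0.0921 and 0.0511 CPM to 18.8, 13.7 and 11.9 CPM. Usp18, which restrains interferon receptor signalling, went from 1.97, 1.15 and 0.817 CPM to 100.5, 66.4 and 105 CPM. Ifi44 had the largest of the 15 largest gains, a log2 fold change of 8.01 ± 0.57 (SE). Isg15, a ubiquitin-like modifier, rose by 5.73 and Mx2, an antiviral GTPase, by 5.72 on the log2 scale. Cultured replicate 1 held the highest value for Ifit1, Irf7, Ifi44 and Isg15, and the groups did not overlap for any of them. Ifit2 was the exception, at a mean of 26.8 CPM at E12.5 and 27.4 CPM in culture. In each of the 6 fits that left out 1 library, 16 members passed.

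Inflammatory genes rose as well, with 17 of 19 tested members risen, none fallen and a median log2 fold change of 3.64. Tnfaip3, a brake on NF-kappaB signalling, went from 3.75, 3.41 and 2.76 CPM to 44.4, 38.7 and 41.1 CPM (log2 fold change 3.64 ± 0.21, SE; edgeR quasi-likelihood test, adjusted p = 0.000114). C3, the central complement protein, rose by 4.73 on the log2 scale from 0.656 CPM or less. Cxcl10, a chemokine that interferon induces, was at most 0.102 CPM at E12.5 and at least 5.39 CPM in culture. Ptgs2, the inducible cyclooxygenase, rose by 4.50 on the log2 scale. Between 12 and 18 members passed when 1 library was left out. Neither interferon nor inflammatory transcripts can be assigned to a cell type here, and leukocyte markers moved with them. Of 17 leukocyte genes tested, 10 rose, 1 fell and 6 did not pass, and their summed level went from 97.4 to 192 CPM at E12.5 to 299 to 351 CPM in culture. The part of leukocytes in the inflammatory and interferon gains was not tested.

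Lyz2, lysozyme, which macrophages and later alveolar type 2 cells make, went from 8.71, 6.35 and 4.24 CPM to 78.2, 105 and 125 CPM (log2 fold change 4.0 ± 0.31, SE; edgeR quasi-likelihood test, adjusted p = 0.000277). Cd14, the endotoxin co-receptor, rose by 3.72, Itgam, an integrin of myeloid cells, by 3.68 and Emr1, the F4/80 antigen, by 2.07 on the log2 scale. Ptprc, the pan-leukocyte antigen CD45, was at 2.29, 2.03 and 2.45 CPM at E12.5 and at 9.33, 7.53 and 3.97 CPM in culture (log2 fold change 1.62 ± 0.37, SE). Its call was lost without E12.5 replicate 2 (edgeR quasi-likelihood test, adjusted p = 0.0728), low pressure replicate 1 (0.0659) or low pressure replicate 2 (0.0593). Csf1r, the macrophage growth factor receptor, had a log2 fold change of 0.90 ± 0.33 (SE) and did not pass, while without E12.5 replicate 1 it passed (edgeR quasi-likelihood test, adjusted p = 0.00298). The 1 member that fell was Lyve1, found on resident macrophages and on lymphatic and early venous endothelium, by 2.04 on the log2 scale, with overlapping groups and a call that stood, of the fits that left out 1 library, only without E12.5 replicate 3. Leukocyte genes that rose numbered 5 without E12.5 replicate 2, and 6 without low pressure replicate 1 or 2. Among the genes with the largest gains of all, Gpnmb, a lysosomal glycoprotein of phagocytes, rose from 0.328, 0.0921 and 0.255 CPM to 39.0, 36.2 and 40.6 CPM. Spp1, osteopontin, rose from 1.26, 1.2 and 0.971 CPM to 74.4, 55.8 and 71.5 CPM, and Mmp9, gelatinase B, from 0.609, 0.782 and 1.12 CPM to 39.2, 36.6 and 25.2 CPM.

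Immediate early genes, which respond to stimuli within minutes and also to tissue handling, had 14 of 20 tested members risen and none fallen. Fos was at 1.12, 0.875 and 0.715 CPM at E12.5 and at 27.7, 25.7 and 11.7 CPM in culture (log2 fold change 4.57 ± 0.42, SE; edgeR quasi-likelihood test, adjusted p = 0.000503). Ier3, which also appears among the genes with the largest gains, went from 1.97, 0.875 and 0.715 CPM to 52.6, 55.9 and 30.3 CPM. Fosl2 rose by 2.39 and Zfp36, which destabilises cytokine messages, by 2.15 on the log2 scale. In all 4 genes the groups were separate, and for Fos and Ier3 low pressure replicate 3 was the lowest cultured library.

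Red cell genes had the lowest median of the 42 lists. Of 12 erythroid members tested, 10 fell and none rose, with a median log2 fold change of -3.74, and the summed level dropped from 3242 to 3951 CPM at E12.5 to 504 to 972 CPM in culture. Hbb-y, the main embryonic beta-like globin (chr7:103851749-103853216, minus strand), was at 2746, 2189 and 2327 CPM at E12.5 and at 539, 277 and 219 CPM in culture (log2 fold change -2.81 ± 0.35, SE; edgeR quasi-likelihood test, adjusted p = 0.00155). Slc4a1, the band 3 anion exchanger of the red cell membrane, went from 50.8, 114 and 223 CPM to 5.36, 3.22 and 2.09 CPM, a log2 fold change of -5.18 ± 0.61 (SE). Alas2, the erythroid enzyme that starts haem synthesis, went from 64.8, 49.4 and 55.0 CPM to 7.53, 4.50 and 8.44 CPM. Hbb-bh1 and Hba-x, primitive red cell globins, fell by 4.18 and 4.08 on the log2 scale. Kel, a blood group protease, Ermap, a red cell membrane protein, and Beta-s, an adult-type beta globin, fell by 3.83, 3.62 and 3.82. The groups did not overlap for any of these genes. Fresh libraries differed among themselves: Slc4a1, Hbb-bh1 and Hba-x were lowest in E12.5 replicate 1 and highest in replicate 3, while Hbb-y and Alas2 were highest in replicate 1. The 2 members that did not pass were Klf1 (log2 fold change -2.85) and Tfrc (0.66), the transferrin receptor that many dividing cells carry. Between 8 and 10 members passed when 1 library was left out.

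Vessel genes fell unevenly. Of 15 endothelial members tested, 6 fell, none rose and 9 did not pass, with a median log2 fold change of -0.85. Tek, the angiopoietin receptor TIE2 (chr4:94739289-94874976, plus strand), went from 53.3, 54.5 and 42.7 CPM to 8.19, 3.66 and 5.36 CPM (log2 fold change -3.13 ± 0.31, SE; edgeR quasi-likelihood test, adjusted p = 0.000659). Plvap, which forms the diaphragms of capillary pores, went from 44.6, 25.3 and 21.5 CPM to 4.28, 2.29 and 1.40 CPM. Emcn, the venous and capillary sialomucin endomucin, went from 15.1, 33 and 32.4 CPM to 6.88, 4.0 and 1.46 CPM. Mmrn1, a protein of platelets and of lymphatic endothelium, was outside the list and fell by 4.23 on the log2 scale, from 72.0, 68.1 and 47.6 CPM to 3.81, 4.50 and 1.62 CPM. These 4 genes had separate groups. Cdh5, VE-cadherin, was at 203, 187 and 157 CPM and then 120, 82.5 and 73.2 CPM, a log2 fold change of -0.99 ± 0.22 (SE; edgeR quasi-likelihood test, adjusted p = 0.0144). That call was lost without E12.5 replicate 2 (adjusted p = 0.0597) or low pressure replicate 2 (0.0664), both by edgeR's quasi-likelihood test. Pecam1, the junction protein CD31, had a log2 fold change of -0.85 ± 0.29 (SE) and Kdr, the main VEGF receptor, one of -0.37 ± 0.18 (SE), and neither passed. Pecam1 passed without E12.5 replicate 3 (log2 fold change -1.06; edgeR quasi-likelihood test, adjusted p = 0.0242). The list's fallen members numbered 3 without low pressure replicate 2. Pericyte genes went the other way, with 6 of 9 risen and none fallen. Among them Abcc9, a subunit of an ATP-sensitive potassium channel, rose by 2.83, Cspg4, the NG2 proteoglycan, by 2.38, Cox4i2 by 3.53 and Ndufa4l2 by 4.66 on the log2 scale. Cox4i2 and Ndufa4l2 are mitochondrial proteins also known to respond to low oxygen. Leaving out 1 library left 4 to 7 pericyte genes risen.

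Genes of DNA replication fell. Of 24 S phase members tested, 15 fell, against 12.4% of all genes, and none rose, with a median log2 fold change of -0.75 and a summed level of 4219 to 4434 CPM at E12.5 and 2569 to 2613 CPM in culture. Rrm2, a subunit of ribonucleotide reductase, was at 299, 363 and 505 CPM at E12.5 and at 126, 125 and 135 CPM in culture (log2 fold change -1.59 ± 0.22, SE; edgeR quasi-likelihood test, adjusted p = 0.00219). Ccne2, the cyclin that drives entry into S phase, went from 59.2, 101 and 108 CPM to 26.8, 24.2 and 18.5 CPM. Tyms, thymidylate synthase, fell by 1.67 and Pola1, the catalytic subunit of polymerase alpha, by 0.85 on the log2 scale. The groups were separate for these 4 genes. Without E12.5 replicate 2 or low pressure replicate 2, 9 members passed.

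Mitosis genes were mixed, with 11 of 24 tested members fallen, none risen and a median log2 fold change of -0.53. Ube2c, a ubiquitin-conjugating enzyme of the anaphase promoting complex, went from 129, 112 and 93.7 CPM to 33.5, 33.5 and 37.3 CPM (log2 fold change -1.68 ± 0.17, SE; edgeR quasi-likelihood test, adjusted p = 0.000713). Bub1, a spindle checkpoint kinase, went from 104, 210 and 213 CPM to 54.0, 58.2 and 46.2 CPM. Bub1b fell by 0.96 and Nusap1, a spindle protein, by 1.29 on the log2 scale. Mki67, the proliferation antigen Ki-67, was at 547, 329 and 275 CPM at E12.5 and at 339, 372 and 409 CPM in culture, so the groups overlapped and no direction held across settings (log2 fold change -0.04 ± 0.26, SE; 0.31 without E12.5 replicate 1). The mitosis calls numbered 5 without E12.5 replicate 2, 5 without low pressure replicate 1 and 4 without low pressure replicate 2. For p53 targets and inhibitors of the cell cycle, 7 of the 16 members tested rose and none fell. Members were chosen with earlier results of these data known, and the list does not hold every p53 target. Rps27l, given below among the largest losses (log2 fold change -3.24), was not a member. Cdkn1a, the inhibitor p21, went from 4.54, 3.45 and 2.66 CPM to 64.3, 60.3 and 52.9 CPM (log2 fold change 4.06 ± 0.25, SE; edgeR quasi-likelihood test, adjusted p = 0.00012). Bbc3, the cell death factor PUMA, rose by 4.05, Eda2r, a death receptor that p53 induces, by 2.94, and Gadd45b by 2.11 on the log2 scale. This list's risen members numbered 4 without E12.5 replicate 2.

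Many mitosis genes are known to carry CCAAT boxes, which NF-Y binds, and the cell cycle genes homology element TTTGAA in their promoters. RefSeq gave a promoter for 20 of the 24 listed genes, of which 18 (90.0%) held CCAAT on either strand, against 37.9% of 27025 promoters, and 15 (75.0%) held TTTGAA, against 18.1%. Ube2c (chr2:164769679-164769978, plus strand) held 6 matches of CCAAT, some of them overlapping on opposite strands, and 1 of TTTGAA. Bub1b (chr2:118597961-118598260, plus strand) held 1 of each. These are the 2 promoters among the members with the 4 smallest p that held both, with the matches in capitals (ATTGG and TTCAAA are the same letters on the other strand). Of the 18 immediate early promoters matched, 0 held the AP-1 letters TGANTCA, against 7.9% of all promoters. In the metallothionein and NRF2 list, 6 of 13 promoters (46.2%) held TGCGCNC, against 15.5% of all promoters. Of the 14 members tested in that list, 2 rose and 2 fell. All these lists were chosen by function and the shares count every member, changed or not. They therefore cannot tie the letters to the changes in culture.
Ube2c: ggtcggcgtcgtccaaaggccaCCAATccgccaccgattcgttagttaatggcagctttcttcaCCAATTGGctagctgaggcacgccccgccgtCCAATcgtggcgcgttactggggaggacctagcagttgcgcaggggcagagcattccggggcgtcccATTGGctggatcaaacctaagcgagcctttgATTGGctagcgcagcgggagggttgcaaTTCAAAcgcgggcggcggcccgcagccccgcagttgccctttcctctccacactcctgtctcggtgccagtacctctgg
Bub1b: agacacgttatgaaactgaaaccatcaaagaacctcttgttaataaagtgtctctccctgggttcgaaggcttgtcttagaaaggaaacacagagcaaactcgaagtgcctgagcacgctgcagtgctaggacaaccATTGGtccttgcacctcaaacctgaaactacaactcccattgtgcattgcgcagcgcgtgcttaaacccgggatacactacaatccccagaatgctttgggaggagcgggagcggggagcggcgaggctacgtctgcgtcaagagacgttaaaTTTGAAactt

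Matrix genes rose broadly. In all, 15 of 20 genes of fibrillar and elastic matrix and 15 of 18 of basement membrane passed upward, and none in either list fell. Their median log2 fold changes were 1.19 and 1.05, and the summed level of the first list went from 5859 to 7461 CPM at E12.5 to 13423 to 15975 CPM in culture. Fbn1, the microfibril protein fibrillin 1, was at 252, 210 and 176 CPM at E12.5 and at 804, 856 and 875 CPM in culture (log2 fold change 1.99 ± 0.19, SE; edgeR quasi-likelihood test, adjusted p = 0.00052). Fbn2, its fetal relative, rose by 1.47, Loxl2, a collagen crosslinking oxidase, by 1.55 and Col5a1, which starts collagen fibrils, by 1.41 on the log2 scale. Hspg2, the basement membrane proteoglycan perlecan, went from 226, 128 and 110 CPM to 801, 798 and 900 CPM. Lama5 and Lamb2, laminin chains, rose by 2.10 and 2.14, and Agrn, agrin, by 1.69. Groups were separate for all 8 genes. The main fibrillar collagens had fold changes near the list's median or below it: Col1a1 was at 670, 443 and 413 CPM at E12.5 and at 898, 1046 and 1341 CPM in culture (log2 fold change 1.11 ± 0.25, SE), and Col3a1 rose by 0.67 ± 0.21 (SE). Eln, tropoelastin, went from 96.1, 46.7 and 17.2 CPM to 164, 163 and 319 CPM, a log2 fold change of 2.01 ± 0.56 (SE). By edgeR's quasi-likelihood test these 3 calls were not stable. Col1a1 lost its call without E12.5 replicate 2 (adjusted p = 0.074) or low pressure replicate 3 (0.0504). Col3a1 lost its call without any 1 of the 6 libraries other than E12.5 replicate 1, and Eln without E12.5 replicate 2, low pressure replicate 1, 2 or 3. The fibrillar list had 9 risen members without E12.5 replicate 2, and the basement membrane list 7 without that library and 9 without low pressure replicate 1 or 2. Transcripts of the basement membrane list are long (median 7135 bases), and long transcripts were higher in the cultured libraries as a class, as given below with the respiratory genes. With offsets for GC content and length, 13 fibrillar and 12 basement membrane genes rose, and the medians were 1.01 and 0.67.

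Genes of matricellular proteins and matrix proteases also rose, with 8 of 15 matricellular and 12 of 15 protease and inhibitor genes risen and none fallen. Tnc, tenascin C, went from 41.5, 54.9 and 66.2 CPM to 307, 294 and 479 CPM (log2 fold change 2.73 ± 0.27, SE; edgeR quasi-likelihood test, adjusted p = 0.000601), and Fn1, fibronectin, from 337, 242 and 202 CPM to 906, 1004 and 1137 CPM. Postn, periostin, rose by 1.41 on the log2 scale. Ctgf, a matricellular protein and YAP target, rose by 1.11 ± 0.26 (SE), a call lost without E12.5 replicate 2, low pressure replicate 1 or low pressure replicate 2. Plau, urokinase, and Adamts1 rose by 1.98 and 1.30. Mmp12, the macrophage elastase, had 331 reads in culture and 1 at E12.5, a ratio of 203 (95% exact interval 36.2 to 8035, counting error only). Without E12.5 replicate 2 or low pressure replicate 1, 5 matricellular genes rose, and 7 protease genes without low pressure replicate 1. Cartilage genes had 5 of 12 risen and 1 fallen. Col2a1, the collagen of cartilage, went from 113, 70.1 and 62.3 CPM to 351, 465 and 318 CPM, and Acan, aggrecan, from 0.187, 0.736 and 0.204 CPM to 4.53, 6.29 and 10.1 CPM. Hapln1, which links aggrecan to hyaluronan, fell from 47.7, 75.8 and 71.7 CPM to 8.77, 8.13 and 3.27 CPM, a log2 fold change of -3.27 ± 0.39 (SE).

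Distal tip genes did not pass, nor did Nkx2-1, Sox2, Cdh1 or Shh, while some other epithelial genes rose, as given below. Of 12 distal tip genes tested with edgeR's quasi-likelihood test, 0 passed in either direction, while 2 (Sox9 and Fgfr2) had an unadjusted p under 0.05 and DESeq2 also called 0, and the median log2 fold change was -0.15. Nkx2-1 was at 70.8, 88.7 and 83 CPM at E12.5 and at 87.5, 77.9 and 87.1 CPM in culture (log2 fold change 0.06 ± 0.16, SE). Sox9, the tip progenitor factor, was at 106, 165 and 217 CPM and at 253, 263 and 222 CPM (log2 fold change 0.60 ± 0.25, SE). Sox2, the proximal airway factor, Bmp4, a tip ligand, and Cdh1, E-cadherin, had log2 fold changes of -0.27 ± 0.24, -0.17 ± 0.18 and 0.78 ± 0.34 (SE). Sftpc, surfactant protein C, was at 17.3, 6.81 and 3.27 CPM and at 4.71, 2.94 and 9.14 CPM, with overlapping groups. Shh, the epithelial hedgehog ligand, was at 56.2, 111 and 110 CPM at E12.5 and at 57.5, 54.1 and 60.0 CPM in culture (log2 fold change -0.69 ± 0.26, SE). DESeq2 did call Shh (log2 fold change -0.71; DESeq2 test, adjusted p = 0.0373). Without E12.5 replicate 1, whose values for Shh and Cdh1 lie apart from the other two, both passed with edgeR's quasi-likelihood test: Shh at -0.95 (adjusted p = 0.000954) and Cdh1 at 1.27 (adjusted p = 0.00292). Sox9 passed without E12.5 replicate 3 (log2 fold change 0.86; edgeR quasi-likelihood test, adjusted p = 0.0362).

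Of 8 basal and proximal airway genes tested, 4 rose, and 4 passed in every fit that left out 1 library. Krt5, the keratin of basal cells of trachea and oesophagus, had 906 reads in the cultured libraries and 2 at E12.5, a ratio of 278 (95% exact interval 76.6 to 2296, counting error only). Trp63, the basal cell factor p63, went from 1.22, 2.03 and 0.766 CPM to 13.7, 18.3 and 25.2 CPM (log2 fold change 3.82 ± 0.41, SE; edgeR quasi-likelihood test, adjusted p = 0.000867). Krt15 went from 2.95, 1.84 and 1.12 CPM to 24.2, 28.4 and 37.2 CPM, and Foxa3 rose by 3.09 on the log2 scale. Levels of all 4 were low but separate between groups. Krt5 and Trp63 served here as markers of trachea and oesophagus, whose share of the explants was not tested. Of 19 pan-epithelial genes, 8 rose and none fell. Among them Elf3, an epithelial transcription factor, rose by 2.71 and Krt19 by 1.83. Without E12.5 replicate 2 or any 1 cultured library 2 pan-epithelial genes rose, Krt19 not among them, and 4 without E12.5 replicate 3. With offsets for GC content and length, 5 pan-epithelial genes rose. In the alveolar list 5 of 14 rose and 1 fell: Lyz2, given above, Hopx, Emp2, Muc1 and Pdpn rose, and Lpcat1, a surfactant lipid enzyme, fell by 0.57. Of the fits that left out 1 library, the calls of Muc1, Pdpn and Lpcat1 stood only in the one without E12.5 replicate 1, and that of Emp2 was lost without E12.5 replicate 2. Alveolar genes that rose numbered 2 without E12.5 replicate 2, and 3 without E12.5 replicate 3 or any 1 cultured library.

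Airway smooth muscle genes fell in part, with 5 of 15 fallen (Myl9, Cnn1, Cald1, Tpm2 and Actg2) and Smtn risen. Smtn, smoothelin, lost its call in every fit that left out 1 library other than E12.5 replicate 1. Myl9, a myosin light chain, went from 44.9, 30.8 and 36.9 CPM to 13.6, 9.98 and 13.4 CPM (log2 fold change -1.61 ± 0.22, SE; edgeR quasi-likelihood test, adjusted p = 0.00239), and Cnn1, calponin, fell by 1.19 on the log2 scale. Acta2, smooth muscle actin, was at 275, 267 and 183 CPM and at 186, 177 and 256 CPM, with overlapping groups (log2 fold change -0.23 ± 0.22, SE). Myh11, smooth muscle myosin, had a log2 fold change of -1.03 ± 0.49 (SE) that did not pass, and it passed without E12.5 replicate 3 at -1.41. Without E12.5 replicate 2 or any 1 cultured library 2 members fell, and Cald1, Tpm2 and Actg2 were not among them. Of 16 mesenchymal transcription factors, Tbx3 and Foxf1 rose by 0.68 and 0.75, Tbx5 fell by 0.80 on the log2 scale, and none of these 3 calls stood without E12.5 replicate 2. Of 17 striated muscle genes tested, 4 rose, 3 of them skeletal muscle genes, none fell and 13 did not pass, with a median log2 fold change of 0.26 (14.47% of all genes rose). Myod1, the muscle lineage factor, had 257 reads in culture and 3 at E12.5, a ratio of 52.5 (95% exact interval 17.8 to 256, counting error only), and Myog had 138 against 1. Myh3, embryonic myosin, was at 3.01, 3.04 and 13.4 CPM in culture and at most 0.187 CPM at E12.5.

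Some ligands and receptors of lung branching rose and others fell. Fgf10, the mesenchymal ligand that draws out epithelial buds (chr13:118669791-118792115, plus strand), was at 45.0, 68.3 and 56.7 CPM at E12.5 and at 26.8, 21.7 and 28 CPM in culture. It fell by a log2 fold change of 1.15 ± 0.21 (SE; edgeR quasi-likelihood test, adjusted p = 0.00667), with separate groups, in each fit that left out 1 library. Fgfr3, a receptor, and Spry4 and Spry1, feedback inhibitors, rose among the 18 FGF genes. With 3 members risen and 1 fallen, the FGF list did not exceed the shares of all genes by much in either direction. Spry4 lost its call without E12.5 replicate 2, Fgfr3 also without low pressure replicate 1, and Spry1 without E12.5 replicate 2, low pressure replicate 1 or 2. In the hedgehog list Boc and Cdon, co-receptors, Ptch1, the receptor and target, and Foxf1, a target, rose by 0.67 to 1.12 on the log2 scale, and none of the 4 stood without E12.5 replicate 2, low pressure replicate 1 or low pressure replicate 2. With offsets for GC content and length, 2 hedgehog genes rose and 1 fell, and the list's median went from 0.52 to 0.02. WNT genes had 9 of 23 risen and 1 fallen. Wif1, a secreted WNT inhibitor, went from 1.97, 1.79 and 1.18 CPM to 12.2, 9.28 and 14.4 CPM, Rspo3 and Dkk3 rose by 1.64 and 1.80, and Wnt4 rose by 1.61 on the log2 scale. The WNT gene that fell was Rspo2, by 0.97, a call lost without E12.5 replicate 2 or 3 or low pressure replicate 1. WNT genes that rose numbered 3 without E12.5 replicate 2, Wnt4 not among them, and 4 without low pressure replicate 2.

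Retinoic acid genes rose for 6 of 16 members and fell for 2, among them Aldh1a1, whose call stood, of the fits that left out 1 library, only without E12.5 replicate 3. Dhrs3, a reductase that limits retinoic acid synthesis, went from 29.7, 27.1 and 36.8 CPM to 281, 316 and 322 CPM (log2 fold change 3.29 ± 0.19, SE; edgeR quasi-likelihood test, adjusted p = 9.83e-05). Cyp26b1, which breaks retinoic acid down, went from 18.2, 14.3 and 18.5 CPM to 88.8, 106 and 72.5 CPM, and the receptors Rarb and Rara rose by 1.19 and 1.14 on the log2 scale. Notch genes had 8 of 14 risen, and Heyl fell, a call lost without E12.5 replicate 2 or any 1 cultured library. They were led by Dll4, a ligand of sprouting endothelium, from 20, 23.1 and 22.9 CPM to 88.0, 69.2 and 63.2 CPM. Hes1, a Notch target, rose by 1.23 and Notch1 by 1.35. Notch genes that rose numbered 4 without E12.5 replicate 2. With offsets for GC content and length, 6 rose, and the list's median log2 fold change went from 0.85 to 0.37. Bmp2, Ltbp2, Tgfb3 and Smad7 were the 4 of 23 BMP and TGF-beta genes that rose, Bmp2 by 2.01 and Ltbp2 by 3.20, a number that was 9 without E12.5 replicate 1. Smad7 lost its call without any 1 cultured library. The 4 of 23 is near the share of all genes that rose. IGF genes had 9 of 15 risen and none fallen, with Igfbp3, an IGF binding protein, from 20.7, 22.2 and 25.9 CPM to 214, 147 and 104 CPM, and Irs4, an insulin receptor substrate, from 0.281, 0.276 and 0.613 CPM to 9.52, 15.8 and 14.6 CPM. Of the genes for ion transport and mechanical sensing, 10 of 18 rose and 1 fell. Ano1, a calcium-gated chloride channel, went from 46.3, 59.4 and 50.9 CPM to 175, 146 and 138 CPM, and Scnn1g, a subunit of the epithelial sodium channel, rose by 3.05. Cftr, the chloride channel of cystic fibrosis, was the member that fell, by 1.2 on the log2 scale, a call lost without E12.5 replicate 2, low pressure replicate 1 or low pressure replicate 2. Of these genes 6 rose without E12.5 replicate 2 or low pressure replicate 2. The GC and length offsets also left 6 risen, and moved the list's median log2 fold change from 0.78 to 0.44.

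Genes of early developmental timing differed widely among the fresh libraries. Hmga2, a chromatin protein of early embryonic tissue, was at 486, 1486 and 2935 CPM at E12.5 and at 707, 802 and 744 CPM in culture. E12.5 replicate 1 lay below all cultured libraries and the other two far above, and the log2 fold change of -1.12 ± 0.53 (SE) did not pass, while without that library it was -1.56 (edgeR quasi-likelihood test, adjusted p = 0.00326). Lin28b, the let-7 inhibitor, was at 10.3, 35.6 and 64.9 CPM and at 6.95, 10.4 and 7.20 CPM, a log2 fold change of -2.17 ± 0.57 (SE; edgeR quasi-likelihood test, adjusted p = 0.0259). Igf2bp3 fell by 0.75, so 2 of 11 timing genes fell and none rose. Both calls were lost without any 1 library other than E12.5 replicate 1, and without that one 7 fell.

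Respiratory chain genes fell in part, and short transcripts were lower as a class. Of 22 respiratory genes tested, 10 fell and Ndufb5 rose, with a median log2 fold change of -0.79. Cycs, cytochrome c, went from 79.5, 95.5 and 100.2 CPM to 22.1, 22.4 and 22.1 CPM (log2 fold change -2.05 ± 0.16, SE; edgeR quasi-likelihood test, adjusted p = 0.000277). Uqcrq, a small subunit of complex III, went from 21.9, 20.3 and 19.2 CPM to 5.09, 4.68 and 2.32 CPM. Cox7a2 and Cox6c, subunits of complex IV, fell by 1.09 and 1.80 on the log2 scale. Ribosomal protein genes had 7 of 26 fallen and Rpl5 risen, and Rpl19 fell by 1.23, Rpl38 by 1.0 and Rps24 by 1.16 on the log2 scale. Without low pressure replicate 2, 3 of them fell, and 4 without E12.5 replicate 2, low pressure replicate 1 or low pressure replicate 3. Ndufb5 and Rpl5 lost their calls in every fit that left out 1 library other than E12.5 replicate 1. The genes with the largest losses included Timm10, Rps27l and Lsm5, all with transcripts under 1000 bases. Timm10 lost its call in 4 of the 6 fits that left out 1 library, with E12.5 replicate 2 or 3 or low pressure replicate 1 or 2 missing. Over all 434 genes with transcripts of over 600 and up to 1000 bases the median log2 fold change was -0.66 and 123 were lower against 35 higher, while over 875 genes longer than 8000 bases it was 0.19 with 58 lower and 205 higher. Transcripts of up to 1000 bases took 2.02% to 2.83% of counts at E12.5 and 1.34% to 1.61% in culture. With offsets for GC content and length, 9 respiratory and 5 ribosomal protein genes fell, with medians of -0.56 and -0.28. Length and GC content are those of the longest annotated transcript of a gene, which need not be the one expressed. Cox6c, Cycs and Rps24 thus counted as 3038, 3123 and 4059 bases, and Cox7a2, Rpl19 and Rpl38 as 659, 751 and 457. The offsets may therefore miss short transcripts of genes that count as long. Beyond those offsets the part of transcript length in these losses was not tested.

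**Figure D3:**
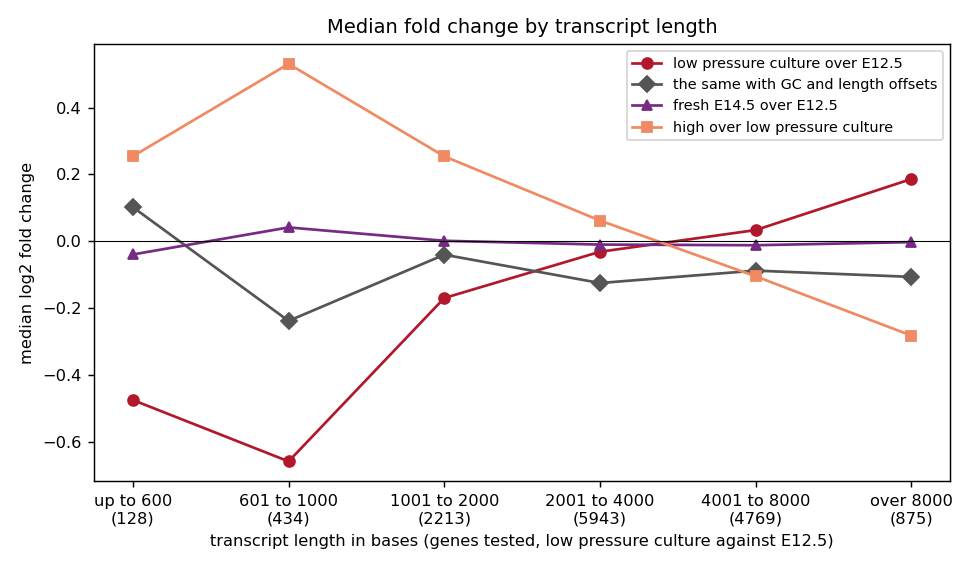
Medians of the log2 fold change are plotted for the genes tested, in 6 classes of transcript length in bases. Length is that of the longest annotated transcript, and the number of genes in brackets is for the low pressure culture against E12.5. Low pressure culture over E12.5 runs from -0.66 between 600 and 1000 bases to 0.19 above 8000 bases, fresh E14.5 over E12.5 stays near 0, and high over low pressure runs the opposite way.

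Of 13 heat shock genes, 5 fell (Hspd1, Hspe1, Hsph1, Hspa8 and Hsp90aa1) and Hspa1a rose. Hspd1, the mitochondrial chaperonin, went from 783, 962 and 977 CPM to 314, 330 and 251 CPM (log2 fold change -1.60 ± 0.19, SE; edgeR quasi-likelihood test, adjusted p = 0.0012) and its partner Hspe1 fell by 1.03. Hsp90aa1 lost its call without E12.5 replicate 2, and Hspa8 without low pressure replicate 1 or 2. The amino acid stress genes Slc7a3, Sesn2 and Chac1 rose by 3.57, 2.11 and 4.62 on the log2 scale among 8 of 22 ATF4 and endoplasmic reticulum genes that rose. Sdf2l1, a folding factor of the secretory pathway, fell by 1.48, and Mthfd2 also fell, a call that stood, with 1 library left out, only without E12.5 replicate 1. Mt1, metallothionein 1, had a log2 fold change of 0.29 ± 0.31 (SE), and in its list Hmox1, haem oxygenase, and Me1 rose while Txnrd1 and Gclm, enzymes of thiol balance, fell. Gclm lost its call without E12.5 replicate 2 or 3 or low pressure replicate 1 or 2. Cholesterol and fatty acid genes had 9 of 21 risen and none fallen, with Srebf2, their transcription factor, up by 1.33, Lss by 1.17, Fasn by 1.06 and Scd2 by 1.23. Cyp1a1, a target of the aryl hydrocarbon receptor, had 1090 reads in culture and 3 at E12.5, a ratio of 223 (95% exact interval 76.0 to 1081, counting error only). Nxph4, a neurexophilin, and Angptl7 were also among the genes with the largest gains, by 7.27 and 5.64 on the log2 scale.

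Fresh E14.5 lungs, also 2 days past the start, were set against the culture to ask whether the change in the dish differed from the change in the embryo. Since both changes start from the same E12.5 libraries, the test is the culture against E14.5, and its values share the cultured libraries with those above. The pools differ in size here, 6 lungs against 3, and this too cannot be told apart from the culture. E14.5 replicate 1 stood apart as E12.5 replicate 1 did. Genes of ribosomal proteins took 4.06% of its counts, against 1.77% and 1.78% in E14.5 replicates 2 and 3. Of 14536 genes tested, 3345 (23%) passed, 12% higher and 11% lower in culture. That count ran from 1338 to 6198 when 1 library was left out. Calls of single genes and lists against E14.5 were not rechecked in those fits. Between fresh E14.5 and fresh E12.5 lung, 0 of 14014 genes passed. The hypoxia list had 21 of its members higher and none lower than at E14.5, with Slc2a1 at 151, 149 and 109 CPM and Vegfa at 73.6, 172 and 161 CPM in the fresh E14.5 libraries. Their log2 fold changes against E14.5 were 3.50 ± 0.22 and 3.70 ± 0.35 (SE; edgeR quasi-likelihood test, adjusted p = 0.000169 and 0.000896). Of the interferon list 16 members were higher than at E14.5, of the inflammatory list 12 and of the immediate early list 13, and none was lower.

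Hbb-bh1 was at 8.30, 6.20 and 15.6 CPM at E14.5 and at 10.6, 11.1 and 8.60 CPM in culture, a log2 fold change of 0.01 ± 0.36 (SE). Hbb-y was at 1195, 420 and 1075 CPM at E14.5, and its log2 fold change against the culture of -1.38 ± 0.46 (SE) did not pass. Of 9 erythroid genes tested against E14.5, 3 were lower in culture, among them Alas2 and Slc4a1, and none was higher. Of 15 endothelial genes, 10 were lower than at E14.5 and none higher. Pecam1 was at 119, 92.5 and 82.6 CPM at E14.5, a log2 fold change of -1.56 ± 0.24 (SE; edgeR quasi-likelihood test, adjusted p = 0.00472). Fgf10 was at 46.5, 77.8 and 99.1 CPM at E14.5 against 21.7 to 28 CPM in culture, a log2 fold change of -1.55 ± 0.28 (SE; edgeR quasi-likelihood test, adjusted p = 0.00897). S phase genes were lower for 11 members and mitosis genes for 10, with none higher.

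Some matrix genes did not pass against E14.5. Col1a1 was at 1122, 955 and 727 CPM at E14.5 and Col3a1 at 2056, 3856 and 4093 CPM, and the log2 fold changes of the culture against E14.5 were 0.23 ± 0.24 and 0.06 ± 0.28 (SE), neither past the threshold. Postn, at 103, 114 and 84.4 CPM at E14.5, had a log2 fold change of -0.34 ± 0.18 (SE), and Lin28b one of -0.56 ± 0.37 (SE). Other matrix genes were above E14.5, with Hspg2 by 2.15, Fbn1 by 1.73 and Tnc by 2.05 on the log2 scale. Smooth muscle genes were lower for 7 of 15 members: Acta2 was at 397, 625 and 401 CPM at E14.5, a log2 fold change of -1.2 ± 0.25 (SE; edgeR quasi-likelihood test, adjusted p = 0.0142), and Myl9 differed by -2.68 ± 0.28 (SE). Heart muscle genes moved with this comparison, since Myh6, cardiac myosin, was at 321, 635 and 148 CPM at E14.5 and at 0.341, 3.09 and 1.90 CPM in culture, and 14 of 18 striated muscle genes were lower in culture. The part of heart tissue in the smooth muscle difference was not tested.

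**Figure D4:**
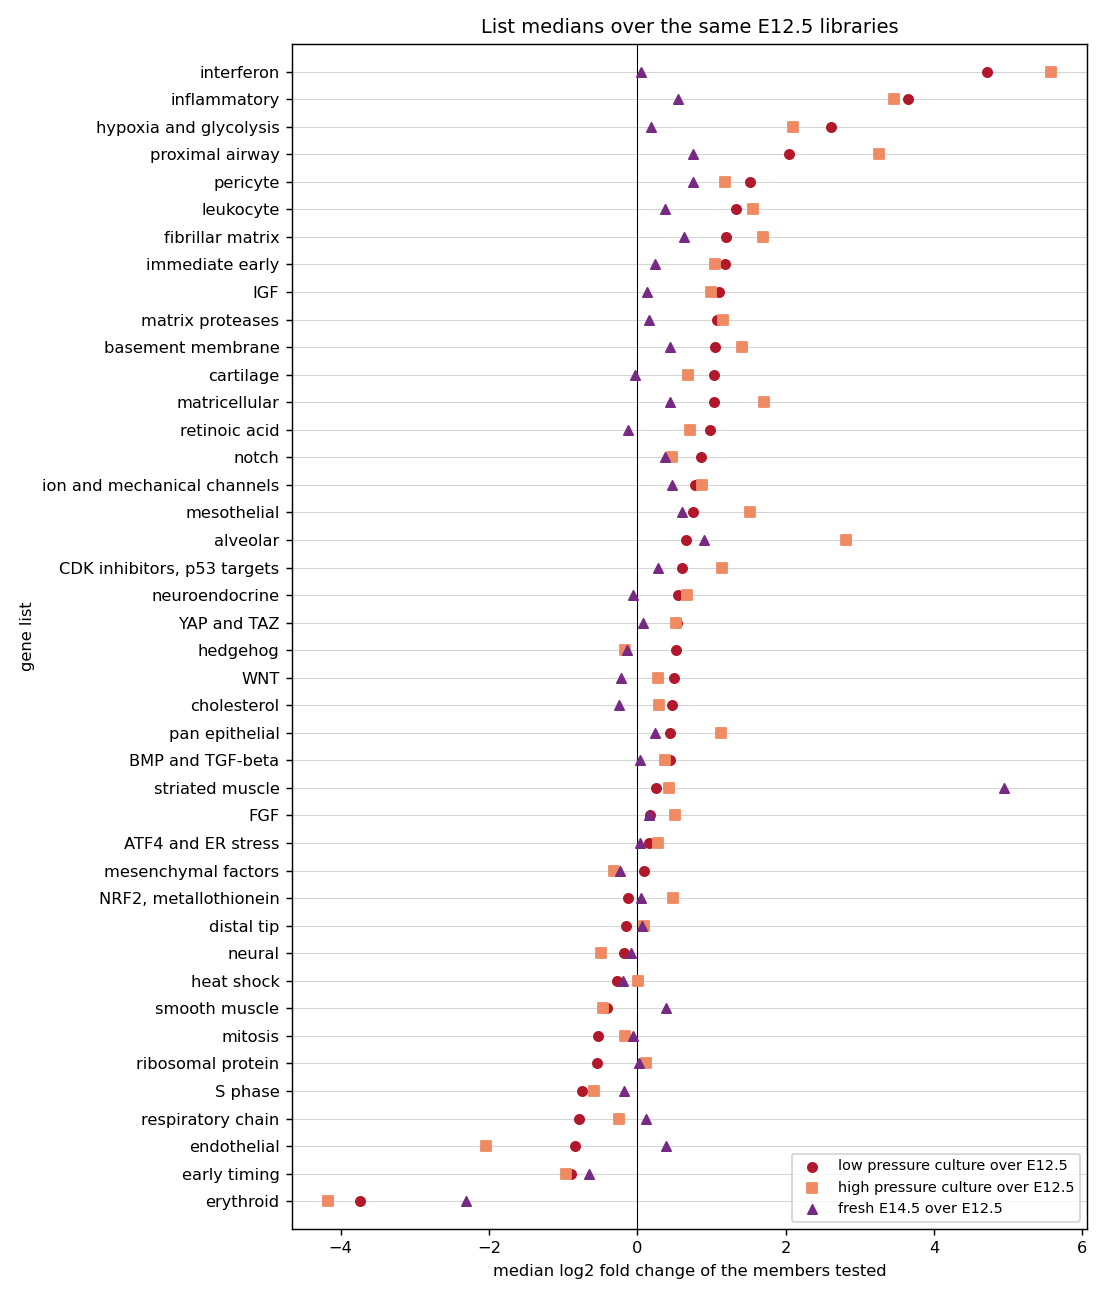
For each of the 42 gene lists, the median log2 fold change of the members tested is shown for low pressure culture, high pressure culture and fresh E14.5 lung, each over the same 3 E12.5 libraries, which the 3 values therefore share. Hypoxia genes have medians of 2.61 and 2.10 in the cultures and 0.18 at E14.5, and interferon genes 4.71, 5.58 and 0.04.

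High pressure cultures, which share the 48 h and the table with the low pressure ones, give a further set of cultured libraries. Ifit1 was at 50.4, 60.5 and 50.8 CPM there, Slc2a1 at 788, 735 and 1041 CPM, Lyz2 at 153, 104 and 113 CPM and Slc4a1 at 1.79, 1.09 and 1.46 CPM. Levels of Tek were 4.16, 1.25 and 0.854 CPM. For these 5 genes every cultured library, at either pressure, lay on the same side of all 3 E12.5 libraries. Their separation at low pressure was already given above, and the share of all genes with this pattern was not counted. High pressure culture against E12.5 passed for 7034 of 14727 genes, so the pattern does not single these genes out. Fgf10, at 37.2, 47.0 and 42.7 CPM under high pressure, overlapped E12.5, and Hmga2 was at 150, 125 and 132 CPM, below all E12.5 and all low pressure libraries.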

How the data were processed

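Bulk RNA-seq of whole mouse lung was analysed from 2 of the 8 deposited tables, which hold raw read counts per gene as the authors deposited them. Per the submitters' processing notes, reads went through cutadapt 1.6, Bowtie 1.1.1, TopHat and HTSeq on mm10. Neither annotation nor filters nor strand setting are stated (not given in the sources used here). Antisense, overlapping or near-identical genes may therefore share reads. The 2 tables were joined by gene symbol, and TMM factors over all 15 libraries put every level on 1 CPM scale. Genes were tested with edgeR 4.0.16 (robust quasi-likelihood fit, R 4.3.3) on the 6 libraries compared after its default filter on low counts, with Benjamini-Hochberg adjustment and a threshold of 0.05. DESeq2 1.42.0, other scalings and filters, GC and length offsets, a replicate block and leaving out each library were alternatives. On simulated counts for low pressure against E12.5 over 14282 genes, 99 genes changed by a log2 size of 1 and 99 by 2. Of these, 17.2% and 84.8% were recovered, with 5 false calls. Far fewer genes changed there than passed in the data, which makes the adjusted threshold stricter. The shares are therefore not the recovery in the data.

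Members and gene lists were chosen with earlier results of these data known. Named genes are the 15 largest gains and losses with separate groups and a mean of at least 5 CPM, up to 4 members of each of 42 lists with the smallest p, and 30 fixed genes. Actg2, Aldh1a1, Cftr, Eno1, Heyl, Hsp90aa1, Hspa8, Ifit2, Klf1, Lyve1, Mthfd2, Muc1, Ndufb5, Pdpn, Rpl5, Rspo2, Smtn and Tfrc are the exceptions, named after their values were seen. Gene coordinates are GENCODE M21 (GRCm38, the same assembly as mm10), matched for 99.3% of the genes tested, and promoters are RefSeq, whose starts can differ. Ratios of genes with 1 to 3 reads in a group carry exact intervals for counting error only. Replicate numbers did not pair the libraries. A few genes that the naming rule gives are not reported here.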

Additional observations from a re-analysis of the deposited data

Results flagged for a closer look

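For 15 of the 30 marker genes that the naming rule lists, against 23% of the 14536 genes tested, the change over 2 days in low pressure culture differed from the change over 2 days in the embryo. Both changes start from the same E12.5 libraries, so the difference is low pressure culture minus E14.5, tested with edgeR's quasi-likelihood test and Benjamini-Hochberg adjustment over all genes. It shares the cultured libraries with the main comparison, and table and pool size cannot be told apart from it. The 30 genes were chosen with earlier results of these data known. The 15 of 30 against 23% therefore does not show that marker genes differ more often than other genes.

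The culture was above E14.5 for Slc2a1 by a log2 fold change of 3.5 (adjusted p = 0.000169), Vegfa by 3.7 (0.000896), Fos by 3.77 (0.00214), Cdkn1a by 3.72 (0.00111), Tnc by 2.05 (0.00214), Fn1 by 1.41 (0.0101), Ptprc by 1.31 (0.0377) and Sox9 by 1.08 (0.00631). It was below E14.5 for Cdh5 by -1.61 (0.00321), Pecam1 by -1.56 (0.00472), Fgf10 by -1.55 (0.00897), Myh11 by -1.41 (0.0127), Acta2 by -1.2 (0.0142), Shh by -0.863 (0.0497) and Kdr by -0.726 (0.0295). For Sox9 the log2 fold change from E12.5 was 0.596 in culture and -0.48 in the embryo. For Cdh5 it was -0.986 in culture and 0.62 in the embryo, and for Acta2 -0.228 and 0.974. In culture the change of Cdh5 passed, and those of Sox9 and Acta2 did not. Between fresh E14.5 and E12.5 lung 0 of 14014 genes passed, so none of these embryo changes passed. No single call against E14.5 was rechecked with 1 library left out.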

How the results depend on the processing

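Of the 191 genes named and tested, 169 passed the threshold, 128 of these did so in every fit that left out 1 library and 124 under every alternative in which they were tested. For low pressure against E12.5 the main count was 3885 (2093 higher, 1792 lower). Leaving out 1 library gave 1584 to 6085 genes (924 to 3139 higher, 660 to 2946 lower), lowest without E12.5 replicate 2 and highest without E12.5 replicate 1. A term for replicate 1 of the fresh stages gave 8663 (4421 higher, 4242 lower). Leaving out E12.5 replicate 1 and low pressure replicate 3 together, an alternative chosen after seeing the data, gave 8535 (4322 higher, 4213 lower). Same-numbered libraries had correlations of deviations of -0.033, -0.0022 and -0.057, and with the replicate block 2756 genes passed (1562 higher, 1194 lower). GC and length offsets gave 4192 genes, 1923 of them higher and 2269 lower, and moved the median of all genes to -0.10.

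Against E14.5 the main count was 3345. DESeq2 gave 2454 lower genes, a fit of all 15 libraries 2417, and the replicate 1 term 8732 genes (4406 higher, 4326 lower). Leaving out 1 library gave 1338 to 6198 (818 to 3134 higher, 520 to 3064 lower).

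The genes whose sign changed had not passed in the main fit, and the cause was not tested. With the replicate 1 term the log2 fold change was -0.053 for Ifit2, 0.233 for Mki67, -0.058 for Nkx2-1 and 0.335 for Sftpc. With the replicate block it was -0.0011 for Ifit2 and 0.0237 for Mki67. GC and length offsets gave -0.411 for Nkx2-1 and -0.130 for Tbx4, and with the replicate block added -0.375 for Nkx2-1. Without E12.5 replicate 1 and low pressure replicate 3 it was 0.237 for Mki67 and -0.055 for Nkx2-1. Leaving out 1 library gave -0.177 to 0.227 for Ifit2, -0.230 to 0.308 for Mki67, -0.029 to 0.130 for Nkx2-1, -1.26 to 0.145 for Sftpc and -0.221 to 0.893 for Tbx4. The GC and length offsets ended the calls of Aldh1a1, Cftr, Col3a1, Fasn, Foxf1, Gclm, Hspe1, Ptch1, Rpl38, Smad7, Smtn, Spry1 and Tbx3, and made those of Shh, Pecam1, Kdr and Tfrc. The replicate block ended those of Col3a1, Foxf1, Igf2bp3, Lpcat1, Mthfd2, Pdpn, Ptch1, Rpl5, Smtn, Tbx3 and Tbx5, and made that of Pecam1. DESeq2 made the calls of Csf1r, Hmga2, Klf1, Pecam1 and Shh, and ended that of Timm10.

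Depth limits genes near 0 at E12.5, where 1 read is worth about 0.05 CPM.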
